A study of Homo sapiens with 10 samples.

Results

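The integrated stress response genes described here are ATF4, DDIT3, CEBPB, TRIB3, PPP1R15A, CHAC1, ASNS, PSAT1, PHGDH and EIF4EBP1. They were chosen by gene symbol, by a rule that uses no measured value but was set with earlier results of these data known, and all 10 were found in both expression tables, out of 11258 transcripts that are in both. Their RNA and ribosome density were followed in BJ cells, a line of human foreskin fibroblasts immortalised with telomerase, that were left untreated (the control, written as 0 h) or were given nutlin-3a for 2, 4, 6 or 19 h. Nutlin-3a keeps MDM2 from binding p53 and so raises p53 activity. Each condition had 1 RNA-Seq library of poly(A) RNA and 1 Ribo-Seq library of ribosome-protected mRNA fragments, 10 libraries in all, from a single cell line. No comparison therefore has a replicate, no p-value can be given, and the errors below cover counting of reads only.

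The integrated stress response starts when a kinase that senses amino acid shortage, unfolded proteins in the endoplasmic reticulum, haem shortage or double-stranded RNA phosphorylates the initiation factor eIF2. General initiation then slows, while mRNAs with certain upstream open reading frames, that of the transcription factor ATF4 above all, are translated more. ATF4 binds DNA together with C/EBP family partners and switches on genes for amino acid synthesis, amino acid transport, redox balance and, when stress lasts, cell death. DDIT3 (CHOP), CEBPB and TRIB3 belong to the regulators of this response, PPP1R15A (GADD34) brings the phosphatase that removes the phosphate from eIF2, and CHAC1 degrades glutathione. ASNS makes asparagine, PHGDH and PSAT1 carry out steps of serine synthesis, and EIF4EBP1 encodes 4E-BP1, which binds the cap-binding factor eIF4E and holds back cap-dependent initiation.

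The DNA letters through which ATF4 and related factors are known to act are shown first, since the genes are grouped by that factor. RefSeq promoters of build GRCh38.p14, which run from 250 bases before to 50 bases after an annotated start, were listed for 9 of the 10 genes, with 15 starts. They were searched on both strands for TGATGNAA, the core of the C/EBP-ATF response element, and for TGACGTCA, the cAMP response element. The first was found in the promoters of CHAC1 and ASNS and in 3.62% of all 35116 promoters of that length, and the second in the promoter of PPP1R15A and in 1.85% of all promoters. The 3 windows below hold 100 bases each, 5′ to 3′ along the gene's strand and wholly before the start, with the matched letters in capitals. They lie at chr15:40953221-40953320 on the plus strand (CHAC1, match at 209 to 202 bases before the start, on the opposite strand), chr7:97872423-97872522 on the minus strand (ASNS, 68 to 61 bases before 1 of its 2 listed starts) and chr19:48872317-48872416 on the plus strand (PPP1R15A, 58 to 51 bases before the start).
CHAC1: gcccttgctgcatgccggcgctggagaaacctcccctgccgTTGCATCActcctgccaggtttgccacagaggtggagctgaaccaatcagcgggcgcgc
ASNS: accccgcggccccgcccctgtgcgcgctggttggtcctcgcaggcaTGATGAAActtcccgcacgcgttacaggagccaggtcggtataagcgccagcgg
PPP1R15A: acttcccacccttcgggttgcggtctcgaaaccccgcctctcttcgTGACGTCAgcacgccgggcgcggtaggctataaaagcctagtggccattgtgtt

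A match describes the letters and not a bound site, and the absence of a match in the other promoters says only that these letters are not in that window. The data of this study hold no measurement of binding.

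The values are FPKM, read numbers scaled to transcript length and library total, which compare levels per length. The recovered totals were 23845600 to 27554300 reads in the RNA-Seq libraries and 7744900 to 14460700 in the Ribo-Seq libraries. The 10 genes had 218 to 10534 RNA-Seq reads and 36 to 3765 Ribo-Seq reads in a library, so DDIT3 is known least precisely in density and TRIB3 in RNA. All 9 fibroblast markers were at 1 FPKM or more in every RNA-Seq library, with a summed level of 9995 to 13420 FPKM, and of 8 markers of other cell types CDH1 and PTPRC alone were listed, with a summed level of 0.079 to 0.253 FPKM. The treatment could be read from the p53 targets, as CDKN1A had 68.6, 212, 915, 1204 and 1316 FPKM of RNA at 0, 2, 4, 6 and 19 h. MDM2 had 14.9, 36.3, 203, 254 and 259 FPKM, and BTG2 had 2.15, 12.6, 64.1, 50.5 and 54.4 FPKM. The p53 targets thus stayed high to the end of the series.

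Most of the integrated stress response genes did not stay high. Their RNA and ribosome density reached a top at 4 h and were much lower in the 6 h libraries, as the plot of levels by time shows. RNA was highest at 4 h for 8 of 10 genes (all but CEBPB and PPP1R15A, which were highest at 2 h), where 10.4% of the 7015 tested genes had their highest RNA at 4 h. Ribosome density was highest at 4 h for 9 of 10 genes (all but PPP1R15A), against 32.2% of the tested genes. Tested genes are those that reached 5 FPKM in RNA-Seq and in Ribo-Seq, at any time, and that were compared by fold alone. All 10 genes passed.

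**Figure D1:**
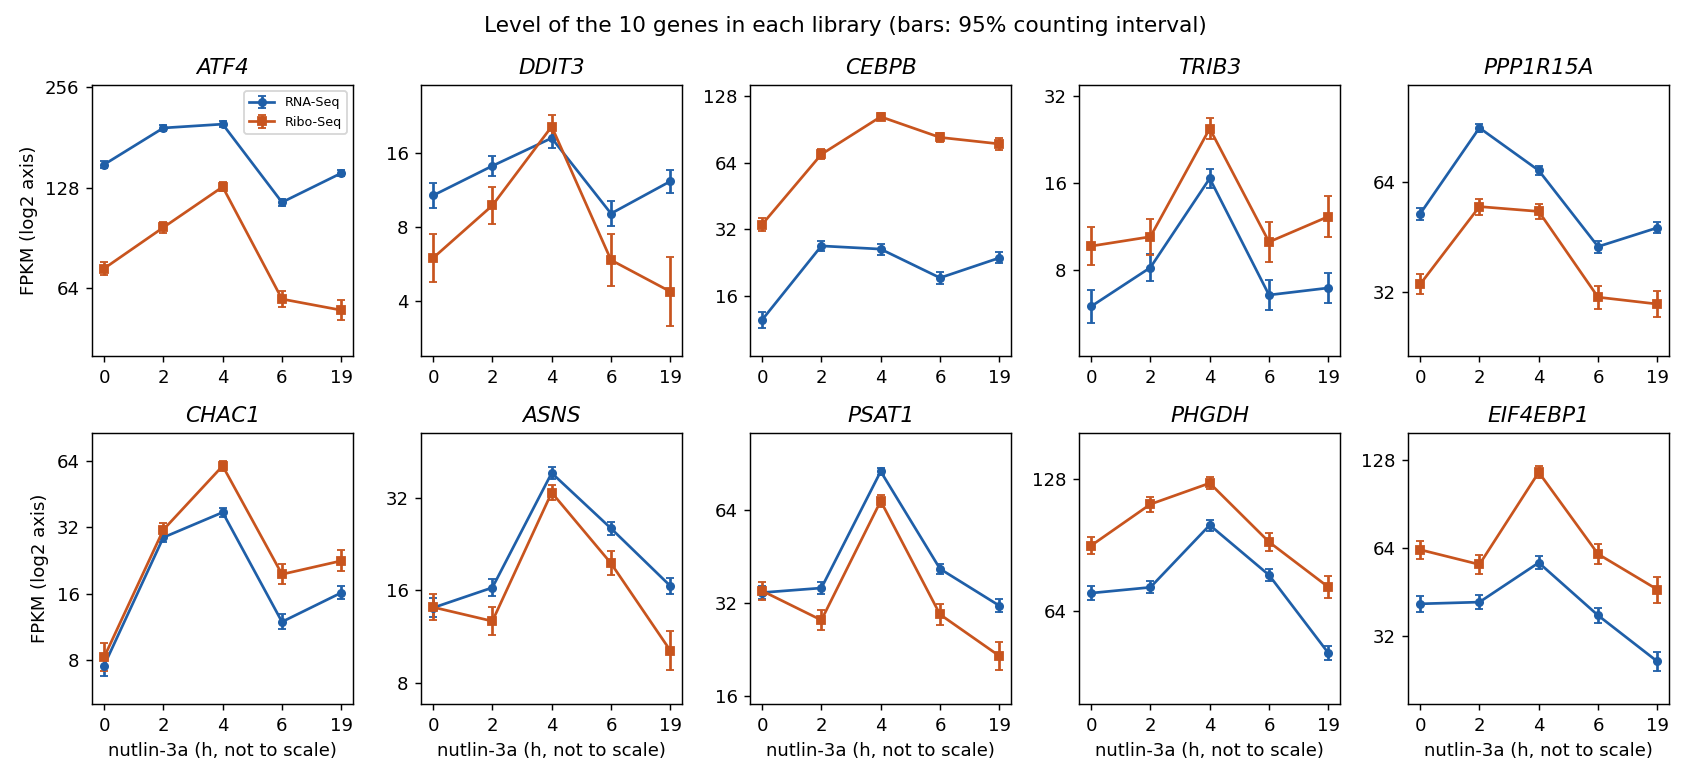
Levels of the 10 genes in the RNA-Seq (blue circles) and Ribo-Seq (orange squares) libraries at 0, 2, 4, 6 and 19 h of nutlin-3a, in FPKM on a log2 axis that differs between panels. Points are single libraries and bars are 95% counting intervals; RNA of 8 genes and ribosome density of 9 genes are highest at 4 h.

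A gene is called higher or lower below when its level was at least 1.5-fold above or below that of the control library of the same assay, with FPKM floored at 1. RNA was higher for 3 of 10 genes at 2 h (CEBPB, PPP1R15A and CHAC1), for 6 at 4 h (DDIT3, CEBPB, TRIB3, CHAC1, ASNS and PSAT1), for 3 at 6 h (CEBPB, CHAC1 and ASNS) and for 2 at 19 h (CEBPB and CHAC1). The share of tested genes with higher RNA was 2.08%, 3.51%, 5.74% and 7.13% at these times. RNA of EIF4EBP1 was lower at 19 h and that of no gene was lower earlier, while 0.214%, 3.58%, 11.6% and 14.6% of tested genes were lower at 2, 4, 6 and 19 h. The median log2 change of RNA over the 10 genes was 0.38, 0.92, 0.13 and 0.05, beside -0.05, -0.07, -0.002 and -0.07 over all tested genes. At 4 h the 10 log2 changes of RNA lay between 0.39 and 2.30, all above the median of tested genes.

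Ribosome density was higher for 4 genes at 2 h (DDIT3, CEBPB, PPP1R15A and CHAC1), for 9 at 4 h (all but PHGDH) and for 2 at 6 h and at 19 h (CEBPB and CHAC1 at both). The share of tested genes with higher density was 6.96%, 10.4%, 15.0% and 15.0%. PSAT1 was lower at 19 h, and none of the 10 was lower before, where 2.72%, 3.26%, 19.0% and 29.8% of tested genes were lower at 2, 4, 6 and 19 h. The median log2 change of density over the 10 genes was 0.36, 1.1, 0.00 and -0.37, and over all tested genes it was 0.02, 0.10, -0.02 and -0.19. The share of the list past the fold was thus far above the background at 4 h in both assays, and at 6 and 19 h its density was near the background in both directions or below it.

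A sliding cut-off, set in local standard deviations of all tested genes at a like level, widens with the spread of each comparison. It was applied to the change itself, with no median subtracted. It called 6 genes higher in RNA at 2 h (ATF4, DDIT3, CEBPB, TRIB3, PPP1R15A and CHAC1), 7 at 4 h (DDIT3, CEBPB, TRIB3, CHAC1, ASNS, PSAT1 and PHGDH) and 0 at 6 and at 19 h, where it called 4.11%, 6.39%, 6.40% and 6.71% of tested genes in either direction. For ribosome density it called 4 genes at 2 h (DDIT3, CEBPB, PPP1R15A and CHAC1), 9 at 4 h (all but PHGDH), CEBPB alone at 6 h and 0 at 19 h, beside 6.29%, 7.48%, 7.31% and 7.28% of tested genes. The 2 and 4 h libraries held the list's changes under both rules, and the 6 and 19 h changes under the fixed fold alone, apart from density of CEBPB at 6 h.

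The turn between 4 and 6 h was read directly from the 4 and 6 h libraries, without the control, in a comparison chosen after the values were seen. RNA was at least 1.5-fold lower at 6 h than at 4 h for 8 of 10 genes and higher for 0, where 9.19% of tested genes were lower and 5.60% were higher. Ribosome density was also lower for 8 of 10 genes and higher for 0, beside 20.9% and 8.47% of tested genes. In both assays CEBPB and PHGDH were the genes that did not pass, at 0.741 and 0.769 of their 4 h RNA level and 0.806 and 0.734 of their 4 h density. The steepest drop of RNA was that of CHAC1, to 0.320 of its 4 h level, and the steepest drop of density that of DDIT3, to 0.284. The median log2 difference, 6 h minus 4 h, was -0.73 for RNA and -1.02 for density over the 10 genes.

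ATF4 (ENSG00000128272) is known to be controlled largely at the level of translation in this response. Its RNA stood at 150.4, 194, 199, 116 and 142 FPKM at 0, 2, 4, 6 and 19 h, and its ribosome density at 73.4, 97.4, 129, 59.4 and 55.1 FPKM. In both assays the 2 and 4 h libraries were the high ones, and the 6 and 19 h libraries were below the control. The RNA levels at 2 and 4 h did not differ beyond counting error, and neither did the density at 6 and 19 h. At 4 h RNA was 1.32-fold and density 1.76-fold that of the control (log2 changes of 0.40 ± 0.02 and 0.81 ± 0.04, counting SE here and below). The RNA of ATF4 did not reach 1.5-fold at any time, so its call at 4 h was in ribosome density alone.

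DDIT3 (ENSG00000175197), a bZIP factor that pairs with C/EBP proteins and promotes cell death under lasting stress, had the largest change of density relative to RNA among the 10 genes. Its RNA was 10.8, 14.2, 18.5, 9.08 and 12.3 FPKM over the series, and its density 5.98, 9.80, 20.6, 5.86 and 4.36 FPKM. The 4 h library was the highest in both, and the 6 and 19 h densities could not be told from each other by counting error, nor could the 6 h density from the control. At 4 h its RNA was 1.72-fold and its density 3.45-fold the control (log2 changes of 0.78 ± 0.11 and 1.79 ± 0.19).

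CEBPB (ENSG00000172216), a C/EBP factor that dimerises with ATF4, was above 1.5-fold at all 4 times in both assays, as was CHAC1. Its RNA was 12.4, 26.9, 26.0, 19.3 and 23.7 FPKM and its density 33.6, 69.9, 103, 83.3 and 77.9 FPKM. Every treated library lay above the control in both assays, and density at 6 and 19 h did not differ beyond counting error. The fold change of density was 2.08, 3.08, 2.48 and 2.32 at 2, 4, 6 and 19 h, and that of RNA was 2.16, 2.09, 1.55 and 1.91.

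TRIB3 (ENSG00000101255), a pseudokinase that ATF4 induces and that damps ATF4 activity, was a narrow peak. Its RNA was 5.96, 8.13, 16.6, 6.53 and 6.91 FPKM and its density 9.65, 10.4, 24.6, 9.97 and 12.2 FPKM. The 4 h library was far above the other 4 in both assays, and the levels at 0 and 6 h did not differ beyond counting error in either. The 4 h folds of RNA and density, 2.78 and 2.55, were alike.

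PPP1R15A (ENSG00000087074), the stress-induced partner of the eIF2 phosphatase, was alone among these genes in having both RNA and density highest at 2 h. Its RNA was 52.3, 89.6, 68.6, 42.6 and 47.9 FPKM and its density 33.6, 54.7, 53.1, 31.0 and 29.7 FPKM. RNA was highest at 2 h and had already come down at 4 h, while density at 2 and 4 h did not differ beyond counting error. The RNA fold was 1.71 at 2 h and 1.31 at 4 h, and the density fold 1.63 and 1.58.

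CHAC1 (ENSG00000128965), the glutathione-degrading enzyme, had the largest changes of the 10 genes. Its RNA was 7.58, 28.8, 37.4, 11.96 and 16.2 FPKM and its density 8.26, 31.2, 60.6, 19.6 and 22.6 FPKM. Both were high by 2 h, highest at 4 h and still above the control at 6 and 19 h. At 4 h RNA was 4.93-fold and density 7.34-fold the control (log2 changes of 2.30 ± 0.09 and 2.88 ± 0.11). At 6 h the folds were 1.58 and 2.38.

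ASNS (ENSG00000070669), the asparagine synthetase, had 14.0, 16.3, 38.5, 25.4 and 16.5 FPKM of RNA and 14.1, 12.7, 33.3, 19.6 and 10.2 FPKM of density. The change was late compared with CHAC1: at 2 h RNA was 1.16-fold and density 0.901-fold the control, and at 4 h they were 2.74-fold and 2.36-fold. RNA was still 1.81-fold at 6 h, when density was 1.39-fold.

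PSAT1 (ENSG00000135069), the aminotransferase of serine synthesis, had 34.6, 35.8, 85.3, 41.3 and 31.3 FPKM of RNA and 35.0, 28.1, 68.4, 29.4 and 21.5 FPKM of density. The 4 h library was the high one in both assays, and the RNA of 0 and 2 h did not differ beyond counting error. The 4 h folds were 2.47 for RNA and 1.955 for density. Its density at 19 h was 0.615-fold the control while its RNA was 0.907-fold.

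PHGDH (ENSG00000092621), the dehydrogenase that opens serine synthesis, had no value past 1.5-fold. It had 70.2, 72.4, 100.4, 77.2 and 51.2 FPKM of RNA and 90.2, 112, 125, 91.9 and 72.5 FPKM of density, so that the 4 h library was again the highest and the 19 h library the lowest in both. Its 4 h folds were 1.43 in RNA and 1.39 in density.

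EIF4EBP1 (ENSG00000187840), the 4E-BP1 gene, had 41.3, 41.8, 57.1, 37.7 and 26.2 FPKM of RNA and 63.3, 56.3, 116, 61.1 and 46.2 FPKM of density. Density at 4 h was 1.84-fold the control where RNA was 1.38-fold. RNA at 19 h was 0.635-fold the control, the lowest RNA fold among the 10 genes.

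At 2 h the RNA log2 changes of the regulators ATF4, DDIT3, CEBPB, TRIB3 and PPP1R15A and of CHAC1 were 0.36 to 1.93. Those of ASNS, PSAT1, PHGDH and EIF4EBP1 were 0.02 to 0.22. The genes were split so with their values known, and CHAC1 is an enzyme. At 4 h the RNA changes of the enzymes ASNS (1.46 ± 0.06) and PSAT1 (1.30 ± 0.04) were above that of ATF4 (0.40 ± 0.02). Among the other regulators TRIB3 was at 1.47, CEBPB at 1.07, DDIT3 at 0.78 and PPP1R15A at 0.39. CHAC1 was at 2.30, PHGDH at 0.52 and EIF4EBP1 at 0.47. In ribosome density the 2 h changes did not divide as those of RNA did, with 0.11 for TRIB3 and 0.41 for ATF4 against 0.31 for PHGDH.

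Translation efficiency (TE) is log2 of ribosome density over RNA, and its change shows where density moved more or less than RNA. The Ribo-Seq values were scaled to the whole transcript. The study's methods count only reads in the coding sequence for translation levels, and which reads the values used here hold was not tested. If they hold reads of the whole transcript, footprints in upstream open reading frames cannot be told apart from those in the coding sequence. This concerns mRNAs such as ATF4, DDIT3 and PPP1R15A. TE was higher for 0 genes at 2 h, for DDIT3 at 4 h, for CEBPB and CHAC1 at 6 h and for 0 at 19 h, and it was lower for DDIT3 and ASNS at 19 h alone. The shares of tested genes with higher TE were 5.39%, 9.24%, 13.3% and 9.00%, and those with lower TE 1.78%, 0.713%, 12.3% and 15.6%. By the fixed fold the number of genes called in TE was therefore near the background at each time. The sliding cut-off called TE of DDIT3, CEBPB and CHAC1 higher at 4 h and that of 0 genes at 2, 6 and 19 h, beside 12.9% of tested genes at 4 h and 7.36%, 7.13% and 7.94% at the others. As this rule subtracts no median, it favours upward calls at 4 h, when the median TE change of tested genes was 0.18.

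The TE of all tested genes was itself shifted at 4 h, by a median of 0.18 (log2), so the values are also given relative to that median. TE of DDIT3 was up by 1.01 ± 0.22 at 4 h and by 0.83 relative to the median. Relative to the median, CHAC1 was at 0.39, CEBPB at 0.38, EIF4EBP1 and ATF4 both at 0.23, and PPP1R15A at 0.09. TRIB3 was at -0.30, PHGDH at -0.22, ASNS at -0.40 and PSAT1 at -0.52. So 6 of the 10 genes lay above the median, about as many as a median leaves on either side, and PPP1R15A and TRIB3 were within counting error of it.

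**Figure D2:**
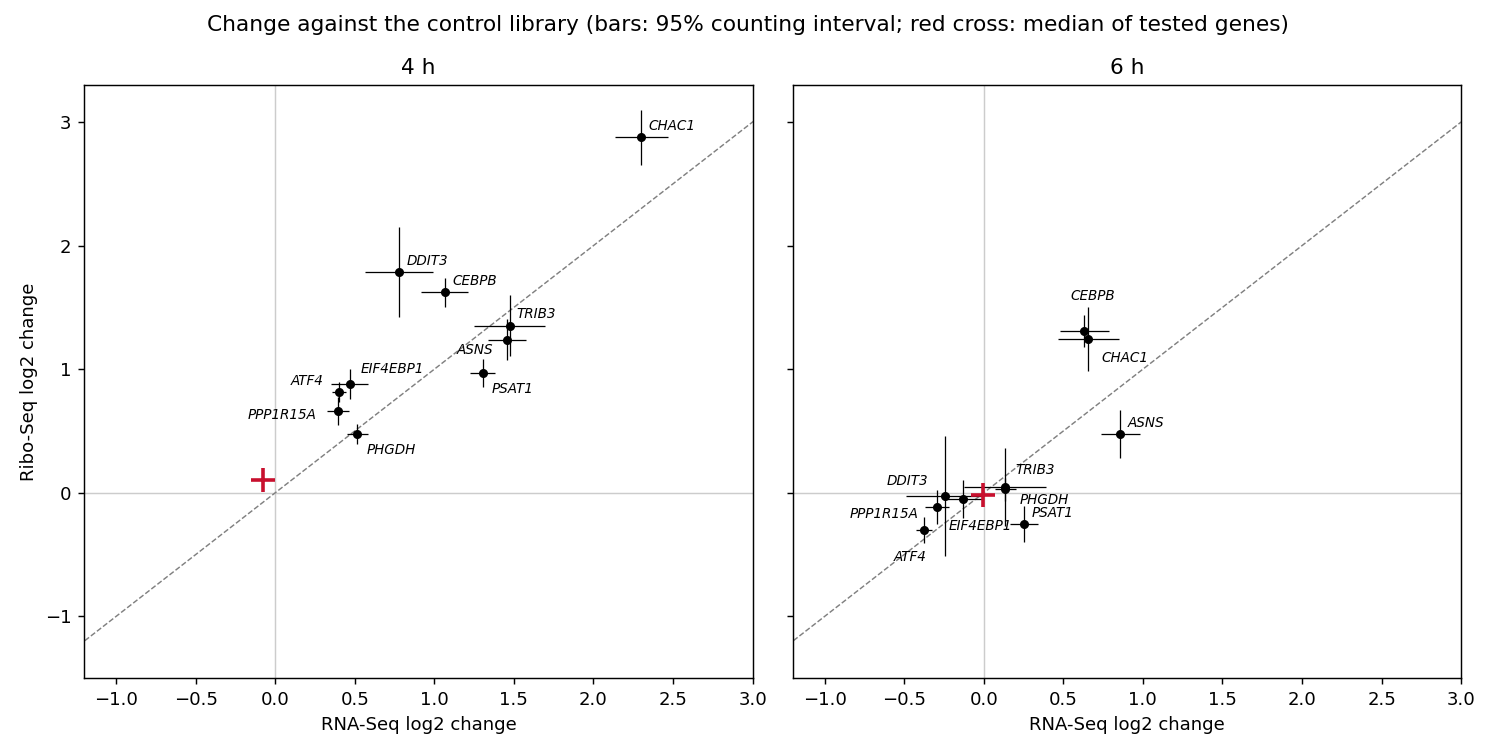
Log2 change of RNA (horizontal) and of ribosome density (vertical) against the control at 4 h (left) and 6 h (right) for the 10 genes, with 95% counting intervals. The dashed line marks equal change and the red cross the median of tested genes. At 4 h ATF4, DDIT3, CEBPB, CHAC1, EIF4EBP1 and PPP1R15A lie above the line, and PSAT1 and ASNS below it. At 6 h 7 genes lie near the cross, with ASNS, CEBPB and CHAC1 apart.

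The TE changes of ASNS and PSAT1 were below 0 at each of the 4 times, although ASNS at 19 h alone passed 1.5-fold and the sliding cut-off called neither gene. The log2 change of TE was -0.37 ± 0.13, -0.22 ± 0.10, -0.38 ± 0.12 and -0.70 ± 0.15 for ASNS at 2, 4, 6 and 19 h. For PSAT1 it was -0.36 ± 0.09, -0.34 ± 0.07, -0.51 ± 0.09 and -0.56 ± 0.10. All 8 values were also below the median of tested genes, by 0.39 to 0.64 for ASNS and by 0.41 to 0.52 for PSAT1. The 4 values of a gene share its control libraries and so are not independent. CEBPB and CHAC1 went the other way from 4 h on, with 0.56 ± 0.10, 0.68 ± 0.10 and 0.28 ± 0.10 for CEBPB and 0.57 ± 0.14, 0.59 ± 0.16 and 0.36 ± 0.16 for CHAC1 at 4, 6 and 19 h.

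ATF4 changed in TE by 0.04 ± 0.05, 0.41 ± 0.05, 0.07 ± 0.06 and -0.33 ± 0.06. Its 4 h value was above and its 19 h value below that of the control beyond counting error, and both were under 1.5-fold. DDIT3 had 0.31 ± 0.24, 1.01 ± 0.22, 0.22 ± 0.28 and -0.65 ± 0.32, so that beyond counting error its 4 h value was above and its 19 h value below the control. The 19 h value of DDIT3 rests on the fewest Ribo-Seq reads of any value here, 36.

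**Figure D3:**
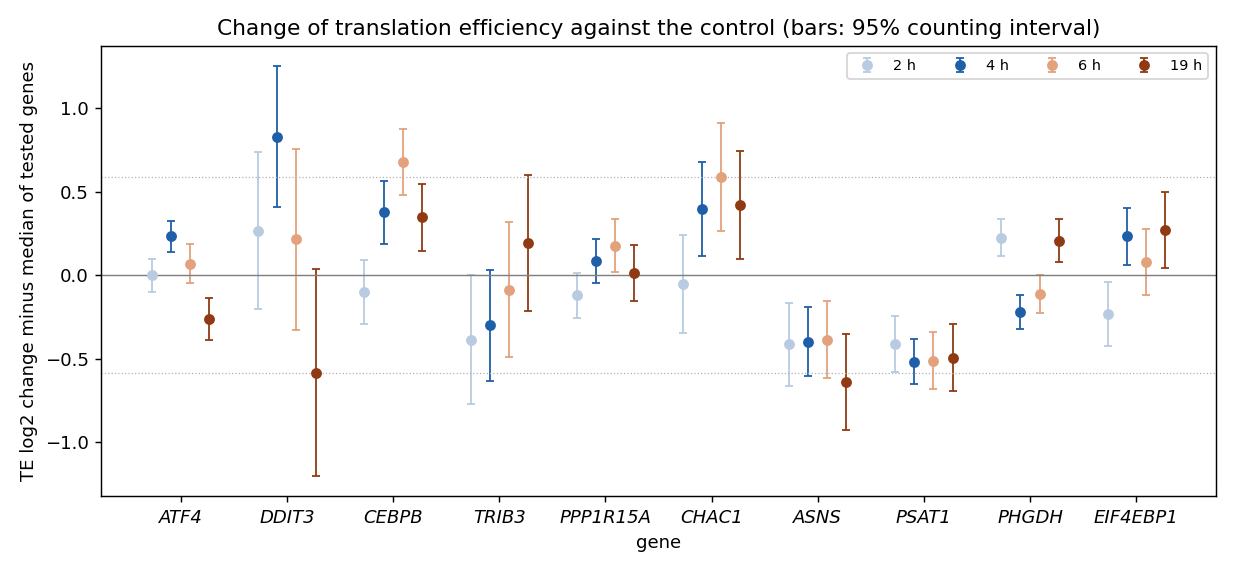
Log2 change of TE against the control minus the median of tested genes, for each of the 10 genes at 2, 4, 6 and 19 h, with 95% counting intervals and dotted lines at 1.5-fold. DDIT3 at 4 h stands highest at 0.83, and the 8 values of ASNS and PSAT1 lie between -0.64 and -0.39.

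Ribosome density also moved with transcript length. Over tested genes the log2 change of density shifted by 0.14, -0.004, 0.10 and 0.15 per doubling of length at 2, 4, 6 and 19 h, and that of TE by 0.10, -0.02, 0.16 and 0.14. The 10 transcripts have 1020 to 2382 nt and are all shorter than the median tested transcript of 2590 nt. With the trend taken out, density was still lower at 6 h than at 4 h for 8 of 10 genes, and the TE of ASNS and PSAT1 stayed below the median at each time, by 0.38 to 0.62 and by 0.39 to 0.52. Sequencing runs differed from each other in this study's data, per its methods, which compare each condition with a control of its own run. The runs of the 2 and 4 h libraries, on which the peak rests, were not given in the sources used here, so for these run and time cannot be told apart. The study also lists a lower share of in-frame footprints for the 6 and 19 h nutlin-3a libraries, and for a control listed beside them, than for its other Ribo-Seq libraries. The share of reads after the coding sequence differed among them too. The effect of this on density and TE was not tested.

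In the wider response, RNA was highest at 4 h for 8 of 9 tested amino acid transporters and 8 of 13 further synthesis genes, and density for 4 of 9 and 8 of 13. Of all tested genes, 10.4% had their highest RNA and 32.2% their highest density at 4 h. Of the 9 transporters, 6 had higher RNA at 4 h, 2 at 2 h (SLC7A5 and SLC3A2) and 0 at 6 and 19 h, when SLC7A1 (6 and 19 h) and SLC1A4 (19 h) were lower. RNA was higher for 2.08%, 3.51%, 5.74% and 7.13% of tested genes at 2, 4, 6 and 19 h. It was lower for 11.6% and 14.6% at 6 and 19 h. SLC7A5, the large neutral amino acid transporter, had 53.9, 86.4, 180.4, 42.8 and 59.2 FPKM of RNA, and its partner chain SLC3A2 had 52.9, 83.2, 106, 56.0 and 52.7 FPKM. The cystine transporter SLC7A11 had 16.2, 14.5, 37.6, 19.2 and 13.6 FPKM, and SLC1A4, which carries alanine and serine, had 9.03, 10.4, 13.6, 6.02 and 4.95 FPKM. In RNA the 4 h library was the highest in each of these 4. Density of SLC3A2 was highest at 2 h (165 FPKM, beside 142 FPKM at 4 h), and that of SLC7A5, SLC7A11 and SLC1A4 at 4 h. Density was higher for 3 of the 9 at 2 h (SLC3A2, SLC7A1 and SLC1A5), 4 at 4 h (SLC7A11, SLC7A5, SLC3A2 and SLC1A4), SLC6A9 at 6 h and 3 at 19 h (SLC7A5, SLC3A2 and SLC6A9). The shares of tested genes with higher density were 6.96%, 10.4%, 15.0% and 15.0% at these times. RNA was at least 1.5-fold lower at 6 h than at 4 h for 8 of the 9 transporters, and density for 4 of 9 (SLC7A11, SLC7A5, SLC1A4 and SLC38A1). The shares of tested genes were 9.19% and 20.9%, so the density count of the transporters was nearer the background than their RNA count.

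Among 13 further tested genes of amino acid and one-carbon synthesis, 6 had higher RNA at 4 h (PSPH, MTHFD2, MTHFD1L, ALDH1L2, GPT2 and PCK2) and 0 at 2 h. The shares of tested genes were 3.51% at 4 h and 2.08% at 2 h. GPT2 reached 5 FPKM of density at 4 h alone, so it passed the filter through that library. MTHFD2, the mitochondrial folate enzyme, had 27.6, 34.5, 57.3, 22.6 and 21.6 FPKM of RNA, and PCK2, mitochondrial PEP carboxykinase, 15.4, 15.6, 29.9, 17.5 and 16.1 FPKM. The list was not uniform. ASS1, argininosuccinate synthase, went up later, with 22.5, 20.3, 25.8, 42.3 and 50.9 FPKM, and SHMT1, the cytosolic serine hydroxymethyltransferase, went down, with 6.01, 5.38, 4.20, 2.08 and 1.11 FPKM. At 6 and 19 h the genes with higher RNA were ALDH1L2 and ASS1 and the gene with lower RNA was SHMT1. Of tested genes, 5.74% and 7.13% had higher RNA and 11.6% and 14.6% lower RNA at these times.

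The partners of ATF4 were divided as well, with 6 of 9 listed factors tested. CEBPG, a common ATF4 partner, had 9.24, 12.7, 13.2, 5.82 and 5.74 FPKM of RNA and 5.58, 5.04, 11.4, 3.32 and 2.97 FPKM of density. Its density was higher at 4 h, and both its RNA and its density were lower at 6 and 19 h. The repressor JDP2 had 18.5, 25.0, 31.9, 15.7 and 21.4 FPKM of RNA, higher at 4 h. CEBPD was higher in RNA at 2 h (8.57 FPKM, from 5.57), and its density was higher at 2, 6 and 19 h (1.55, 1.84 and 2.21-fold). NUPR1, a stress-induced chromatin protein, increased to the end instead, with 7.40, 8.71, 14.2, 18.3 and 19.5 FPKM. ATF3, a bZIP repressor that ATF4 induces, was below the filter at all times and is named with its values known: it was listed at 0.454, 4.78, 4.59, 1.29 and 1.23 FPKM of RNA, highest at 2 and 4 h.

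The upstream part of the pathway had few calls in RNA. Of 15 tested eIF2 kinases, eIF2 and eIF2B subunits and phosphatase partners, PPP1R15B was higher at 2 h (25.8 FPKM, from 16.9), EIF2S1 and PPP1CC were lower at 19 h (19.4 from 30.7 FPKM and 42.3 from 66.0 FPKM), and 0 passed the fold at 4 and 6 h. Among tested genes 2.08%, 3.51%, 5.74% and 7.13% had higher RNA at 2, 4, 6 and 19 h. Lower RNA was seen for 0.214%, 3.58%, 11.6% and 14.6%, so the count of lower genes at 19 h was near the background. PPP1R15B is the constitutive counterpart of PPP1R15A, EIF2S1 is the eIF2 subunit that is phosphorylated, and PPP1CC is a catalytic subunit of the phosphatase. Phosphorylation is not measured by these assays. The kinases EIF2AK3 (PERK) and EIF2AK2 (PKR) are not among the 15, as their density stayed below 5 FPKM. RNA of neither passed 1.5-fold at any time. Density of EIF2AK3 was 1.66, 1.61, 2.21 and 1.88-fold the control at 2, 4, 6 and 19 h. That of EIF2AK2 was 0.656, 0.774, 0.634 and 0.446-fold. In ribosome density EIF2S1, EIF2S2, EIF2S3 and PPP1CC were lower at 6 h and, with EIF2B3, at 19 h, which is 4 and 5 of 15 where 19.0% and 29.8% of tested genes were lower. GCN1L1, the GCN2 activator GCN1, had a higher density at 2, 6 and 19 h (2.23, 2.10 and 2.13-fold) and not at 4 h (1.14-fold), and PPP1R15B had a higher density at 2 h. In the list of 4E-BPs and eIF4F, RNA of 0 of the 3 tested genes passed the fold at any time. Density of the scaffold EIF4G1 was higher at 2, 6 and 19 h (2.18, 2.09 and 2.12-fold), that of the cap-binding factor EIF4E was lower at the same times (0.643, 0.446 and 0.316-fold), and that of the helicase EIF4A1 was lower at 19 h (0.520-fold). At 4 h the density of EIF4G1 and EIF4E was 1.23 and 0.939-fold, so that in these genes the 4 h library resembled the control more than the 2 h library did, as in the trend with length.

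Of the genes that both ATF4 and p53 can induce, RNA was higher for 6, 9, 6 and 6 of the 9 tested at 2, 4, 6 and 19 h, with median log2 changes of 0.94, 2.13, 1.72 and 1.91. The shares of tested genes were 2.08%, 3.51%, 5.74% and 7.13%. In the control, SESN2, DDIT4, GDF15 and BBC3 were below 5 FPKM in both assays, and VEGFA was below it in RNA. These genes passed the filter through treated libraries alone, so the counts are partly set by the filter. GDF15 had 7 RNA-Seq reads in the control library. SESN2, a sestrin that restrains mTORC1, had 4.53, 18.0, 37.5, 21.1 and 24.9 FPKM of RNA, and DDIT4 (REDD1), another mTORC1 inhibitor, had 3.05, 10.8, 34.2, 10.1 and 12.1 FPKM. The stress cytokine GDF15 had 0.245, 4.82, 70.7, 13.1 and 14.8 FPKM of RNA and 1.63, 12.3, 231, 48.8 and 52.7 FPKM of density. BBC3 (PUMA), which promotes apoptosis, had 1.95, 9.42, 18.9, 12.2 and 14.2 FPKM of RNA. In all 4 the 4 h library was the highest and the 6 and 19 h libraries stayed above the control, as they did for TNFRSF10B. The other members differed: RNA of VEGFA, PMAIP1 and STC2 was under 1.5-fold at 6 and 19 h (0.837, 1.19 and 1.12-fold at 6 h), and NUPR1 was highest at 19 h.

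The ATF6 and XBP1 arms of the unfolded protein response, which respond to unfolded proteins in the endoplasmic reticulum beside the kinase PERK and eIF2, followed another course. Of 17 tested genes, RNA was higher for 1 at 2 h (HERPUD1), 0 at 4 h, 9 at 6 h and 1 at 19 h (DNAJB9), and RNA of all 17 was above the control at 6 h. The shares of tested genes with higher RNA were 2.08%, 3.51%, 5.74% and 7.13%. DNAJB9 had 4.82 FPKM of density in the control and passed the filter through treated libraries alone. Its calls are thus partly set by the filter. HSPA5 (BiP), the main chaperone of the endoplasmic reticulum, had 224, 229, 241, 540.4 and 284 FPKM of RNA and 193, 302, 209.7, 589 and 358 FPKM of density. HYOU1 had 51.3, 51.6, 50.9, 93.7 and 50.3 FPKM of RNA, SDF2L1 had 28.3, 26.9, 29.3, 51.4 and 29.6 FPKM, and DNAJB9 had 5.92, 7.41, 8.23, 12.7 and 12.1 FPKM. ERN1 (IRE1) was listed too but missed the filter in density. Its RNA was highest at 4 h, with folds of 2.11, 2.31, 1.52 and 1.73 at 2, 4, 6 and 19 h. Between the 4 and 6 h libraries the lists crossed: RNA was at least 1.5-fold higher at 6 h for 12 of the 17 tested genes and lower for 0, where it was lower for 8 of the 10 integrated stress response genes and higher for 0. Of tested genes, 5.60% had RNA at least 1.5-fold higher at 6 h than at 4 h, and 9.19% had it lower. The median log2 difference, 6 h minus 4 h, was 0.61 for this list and -0.73 for the 10 genes. Density of this list was higher than in the control for 3 genes at 2 h (HSPA5, HYOU1 and HERPUD1), 2 at 4 h (DNAJB9 and XBP1), 10 at 6 h and 8 at 19 h, and at least 1.5-fold higher at 6 h than at 4 h for 8 of the 17. The shares of tested genes with higher density were 6.96%, 10.4%, 15.0% and 15.0%, so the 4 h count was near the background. Between 4 and 6 h, density of 8.47% of tested genes was at least 1.5-fold higher. Density of 5 of the 9 fibroblast markers, COL1A1, COL1A2, COL3A1, FN1 and PDGFRB, was also at least 1.5-fold higher at 6 h than at 4 h. These are mRNAs of secreted or membrane proteins made at the endoplasmic reticulum, and their part in the density of the list was not tested.

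**Figure D4:**
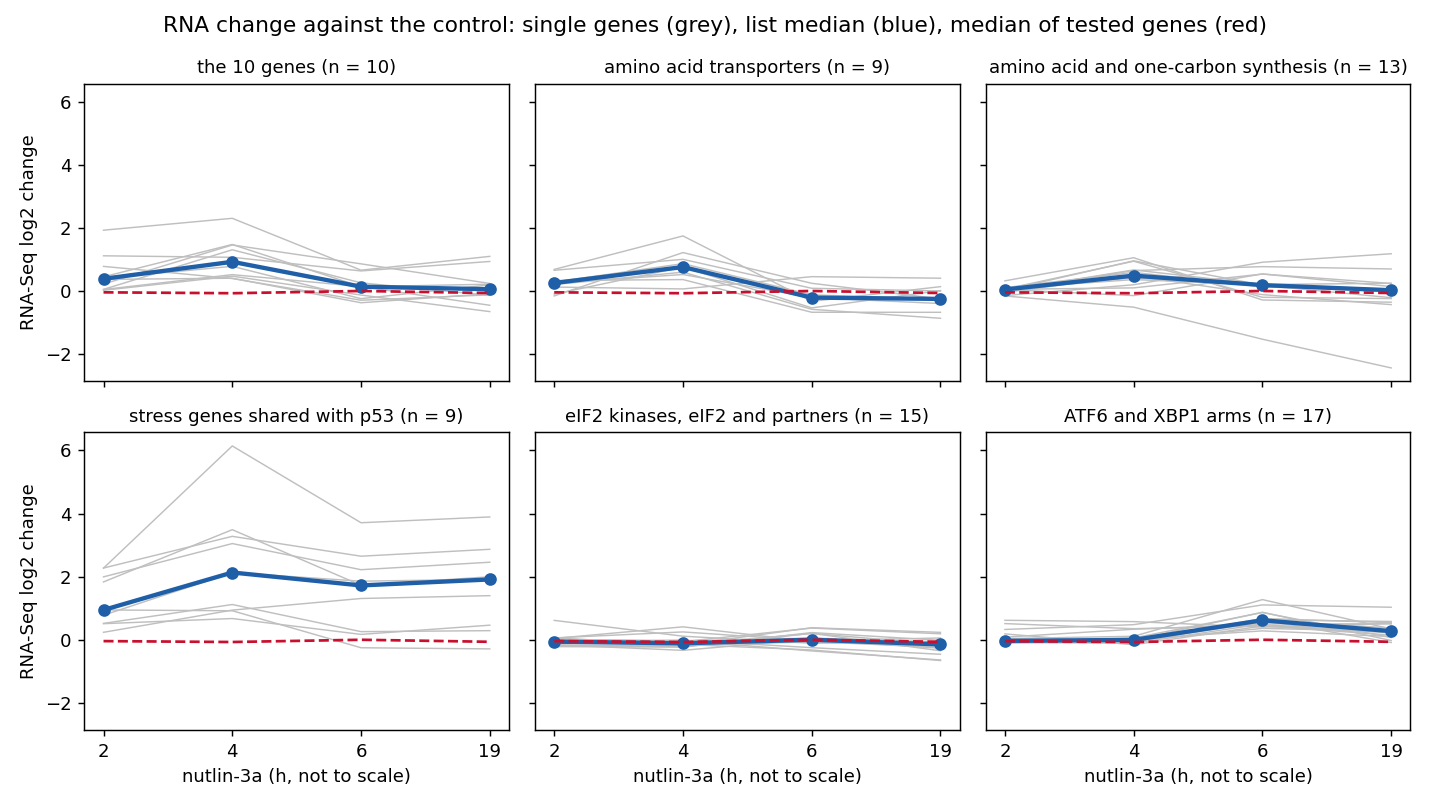
Log2 change of RNA against the control at 2, 4, 6 and 19 h for single tested genes (grey), their median (blue) and the median of all tested genes (red dashes), in 6 lists. The medians of the 10 genes, the transporters and the synthesis genes top at 4 h, that of the ATF6 and XBP1 arms at 6 h (0.62), and that of the eIF2 list stays within 0.15 of 0.

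By likeness of pattern, measured as the distance over the 8 log2 changes of RNA and density among 7005 other tested genes, the genes near to ATF4 included TNFAIP3 (distance 0.502), LIMS1 (0.521), SERPINB8 (0.535) and CCNL1 (0.538). TNFAIP3 (A20), an inhibitor of NF-κB signalling, had RNA changes of 0.52, 0.50, -0.06 and -0.08 and density changes of 0.58, 0.58, -0.17 and -0.29 at 2, 4, 6 and 19 h. Nearest to the median profile of the 10 genes were ARHGAP31 (0.527), SGPL1 (0.570), NAV3 (0.582), TTC39B (0.607) and ELK3 (0.663). None of these neighbours is on the lists used above. The 8 values of a gene share the 2 control libraries, and a small distance describes these libraries alone.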

How the data were processed

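RNA-Seq and Ribo-Seq libraries of BJ cells, untreated or on nutlin-3a for 2, 4, 6 or 19 h, were grouped by their labels, 1 library per group. The authors aligned reads with Bowtie to 1 protein-coding transcript per gene (Ensembl release 65; the submitters' notes name hg19), kept unique hits and deposited FPKM with 3 decimals. Reads shared with near-identical copies were thus lost, and reads of processed pseudogenes are not separated. The table named for both assays holds 1 column per time and was read as RNA-Seq. The column names say total, and the length recovered from the Ribo-Seq values alone equalled that of the RNA-Seq table for all 10 genes, so the Ribo-Seq values are scaled to whole transcripts. The length does not show which reads were counted, and the study's methods name coding-sequence reads alone for translation levels.

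Whole reads, lengths and library totals were recovered from the spacing of FPKM values for 99.1% of 11258 transcripts (Python 3.11.15, numpy 2.4.6, pandas 2.3.3, matplotlib 3.10.9), after tests on simulated data. Counting SEs and 95% counting intervals come from these reads. FPKM was floored at 1, and the 7015 genes that reached 5 FPKM in both assays were tested, where tested means compared by fold, since 1 library per group allows no statistical test. Named genes of the wider lists are the up to 4 with the largest RNA change past 1.5-fold, plus those behind small counts. The members and lists were chosen with earlier results of these data known. Alternatives were a pseudocount of 1, a floor of 5, subtraction of the median, the 2 h baseline, the study's sliding cut-off, counting error and, chosen after seeing the data, removal of the length trend. A gene near to ATF4 in pattern is not reported here.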

Additional observations from a re-analysis of the deposited data

Results flagged for a closer look

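Calls in opposite directions within 1 gene were found for 2 genes. The log2 change of TE of DDIT3 was 1.01 at 4 h and -0.65 at 19 h, and the log2 change of ribosome density of PSAT1 was 0.97 at 4 h and -0.70 at 19 h. Both were past 1.5-fold upwards at 1 time and downwards at another. Neither downward call was made by the sliding cut-off. The 19 h value of DDIT3 was -0.45 with a floor of 5 FPKM, -0.56 with a pseudocount of 1 FPKM, -0.58 with the median subtracted and -0.47 with the length trend removed, all under 1.5-fold, and that of PSAT1 was -0.51 with the median subtracted and -0.39 with the 2 h baseline. The differences were not tested, since each time has 1 library, and the values of a gene share its control.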

How the results depend on the processing

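Of 89 recomputed counts of the 10 genes past 1.5-fold, 71 stayed within 1.5 times the reported count. Under the study's sliding cut-off the counts were 6 for RNA at 2 h, 0 for RNA at 6 and 19 h, 1 for density at 6 h, 0 for density at 19 h, 3 for TE at 4 h and 0 for TE at 6 and 19 h. With the 2 h library as baseline they were 3 for RNA at 4 h, 5 for RNA and 5 for density at 6 h (1 higher and 4 lower in each), 3 for TE at 4 h and 1 for TE at 19 h, and at 19 h those past the fold were all lower, 3 in RNA and 4 in density, where 2 were higher and 1 lower against the control. TE at 19 h counted 1 gene with a pseudocount of 1 FPKM, a floor of 5 FPKM, the median subtracted or the length trend removed, and TE at 6 h counted 1 with the pseudocount. With the 2 h baseline the log2 changes turned to -0.047, -0.48 and -0.18 for CEBPB RNA at 4, 6 and 19 h, to -0.044 for PPP1R15A density at 4 h, to -1.27 and -0.83 for CHAC1 RNA and to -0.67 and -0.47 for CHAC1 density at 6 and 19 h, because these genes were already high at 2 h. The 4 h counts of RNA and density stayed within 1.5 times under the other alternatives, and the drop from 4 to 6 h counted 7 or 8 genes in RNA and 8 in density. Of 570 single changes, 494 moved by less than counting error and 68 by more without turning. Of 648 counts of wider lists, 532 stayed within 1.5 times. Of 24 shares of all tested genes, 22 did, under no filter or a mean of at least 20 FPKM. No paired analysis was possible because the labels give no replicate numbers and each group holds 1 library. Depth limits DDIT3 and TRIB3 most, and with 1 library per group the spread between cultures is unknown.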
